A study of Rattus norvegicus with 16 samples.

Results

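At 6 weeks of age, RNA levels in small mesenteric arteries of spontaneously hypertensive rats (SHR) were set against those of normotensive Wistar-Kyoto rats (WKY), at a time that precedes the rise of blood pressure in SHR. The comparison used all arrays whose titles name hypertensive or normotensive vessels of 6 weeks and that passed quality control, which were 8 of the 16 arrays and 6 of the 12 rat pools of the series. The SHR group held 3 pools on 5 arrays, of the sublines SHR/NCrL, SHR/NHsd and SHR/SP (a stroke-prone line). The WKY group held 3 pools on 3 arrays, of the sublines WKY/NCrL, WKY/NHsd and WKY/NTac. All animals were male inbred rats without a transgene or an experimental treatment. Each pool joined cleaned second- and third-order mesenteric artery branches, with their adventitia and endothelium, from several animals of 1 subline. A subline was therefore 1 sample, so that subline and pool cannot be told apart, nor can animals within a pool. SHR/NCrL, SHR/SP and WKY/NCrL came from 1 supplier, SHR/NHsd and WKY/NHsd from another, and WKY/NTac from its own. The SHR/NHsd and SHR/SP pools lay on 2 arrays each, which were treated as the same pool.

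Small mesenteric arteries contribute to peripheral resistance, and their wall consists mainly of contractile smooth muscle, lined by endothelium and surrounded by an adventitia with fibroblasts, nerves and resident macrophages. Muscle tone is set by receptors that act through G proteins, by ion channels and by gap junctions, and the matrix around the cells determines wall stiffness and remodelling. SHR and WKY descend from the same Wistar colony and were bred apart, so that they also differ at many loci with no known bearing on pressure, among them RT1, the major histocompatibility complex of the rat.

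Values are log2 ratios of test RNA over a common reference, the pooled RNA of all test samples, with arrays of a pool averaged. Per-pool values are given in the order NCrL, NHsd and SP for SHR, and NCrL, NHsd and NTac for WKY. A log2 change is the difference of SHR minus WKY on this scale, n is 3 pools per strain, and probes with an adjusted p under 0.05 are termed called (limma, Benjamini-Hochberg over 30367 probes). Vessels are a mixture of cells, so that fewer cells of a type and less RNA per cell cannot be told apart. On the 8 arrays, 65.4% to 71.9% of spots were well above background. Arrays of the same pool correlated at 0.489 and 0.669 over all probes, and arrays of different pools of a strain at 0.0405 to 0.379. All 20 matched genes of contractile smooth muscle were well above background, against 2 of 12 genes of pancreas and intestine and 5 of 10 of lymphocytes. The SHR/NCrL, WKY/NCrL and WKY/NTac pools lay on 1 slide and the other 3 pools on a second one.

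At 6 weeks, 87 of 30367 probes were called, or 0.286% of all probes tested, with 42 higher in SHR (0.138%) and 45 lower (0.148%). The 64 called probes with a gene name belonged to 62 genes, of which 34 were higher and 28 lower by the called probe. The smallest called change was 1.51-fold, and 46 of the 87 probes differed more than 2-fold. In all 87, the 3 SHR pools lay apart from the 3 WKY pools, whereas the pools lay apart in 12.4% of all probes (5.85% upward and 6.54% downward). At an unadjusted p under 0.05 there were 7.96% of all probes. Since the pools lay apart, the difference necessarily had the same sign on both slides for all 87, which is no further evidence. The values of both slides were within 2-fold of each other for 82. The median log2 change over all probes was −0.01. The SHR/SP pool was the SHR pool nearest to WKY for 37 of the called probes, SHR/NCrL for 26 and SHR/NHsd for 24. With arrays of a pool averaged, the fit called 25 probes (0.0823%), of which 24 were among the 87. Without a pool, between 29 (without SHR/NHsd) and 62 (without WKY/NTac) of the 87 remained called, and 21 remained called whichever pool was left out.

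**Figure D1:**
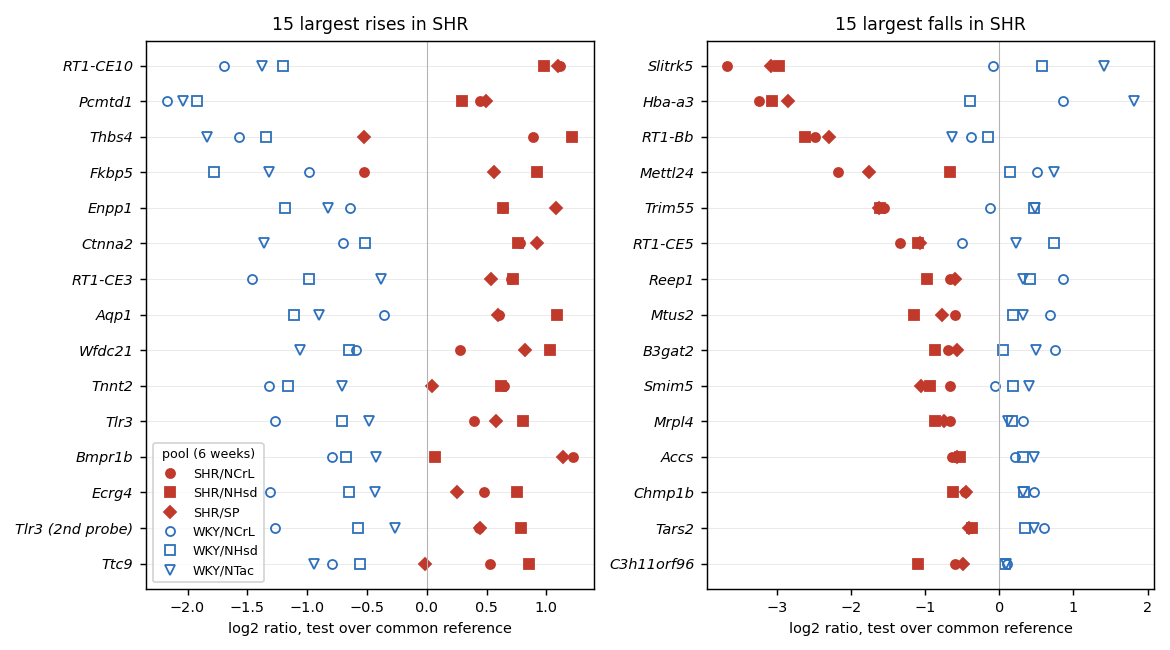
Log2 ratio of test over common reference RNA (x axis) in each 6-week pool for the 15 largest rises (left) and the 15 largest falls (right) among called probes with a gene name. Filled red symbols are the 3 SHR pools and open blue symbols the 3 WKY pools, 1 symbol shape per subline, with arrays of a pool averaged. The strains lie apart in each row, and in *Thbs4* (SHR/SP at −0.53) and *Fkbp5* (SHR/NCrL at −0.52) 1 SHR pool stands nearer to WKY.

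The calls least dependent on processing were those of 10 probes that were called under every one of the 20 alternatives of processing or design as well. The probes were higher in SHR for *RT1-CE10*, *Pcmtd1*, *Enpp1* and *RT1-CE3*, and lower for *Slitrk5*, *Hba-a3*, *Reep1*, *Mtus2*, *Mrpl4* and the unnamed probe A_64_P021924. These alternatives reuse the same probe signals and cannot test what a probe binds. The paper's RT-PCR compared WKY/NTac with stroke-prone SHR at 5 months. There *Slitrk5* and the alpha globin gene were significantly lower in SHR. *Enpp1* and *Pcmtd1* were also lower there, without significance and opposite to their array probes. *Enpp1* (NM_053535) encodes an ectoenzyme that splits ATP outside the cell into AMP and pyrophosphate, an inhibitor of calcification. Its log2 ratios were 0.64, 0.64 and 1.08 in the SHR pools and −0.64, −1.18 and −0.83 in the WKY pools. All SHR pools were above the reference and all WKY pools below it, a 3.21-fold difference (log2 change 1.68, SE 0.17, limma adjusted p = 0.000292). *Pcmtd1* (NM_001257345), which encodes a protein with an isoaspartate methyltransferase domain, had values of 0.45, 0.30 and 0.49 in the SHR pools and −2.18, −1.92 and −2.04 in the WKY pools. This probe was 5.47-fold higher in SHR (log2 change 2.45, SE 0.13, limma adjusted p = 1.2e-07), but a second, dimmer probe of *Pcmtd1* had a log2 change of −0.38 and was not called, and the direction of the gene is left unstated.

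*Slitrk5* (NM_001107284), a transmembrane protein known from neurite growth, was lower in SHR. Its values were −3.67, −2.98 and −3.08 in the SHR pools and −0.08, 0.57 and 1.41 in the WKY pools, and the probe was well above background on 4 of 5 SHR arrays. The log2 change of −3.83 (SE 0.30, limma adjusted p = 1.16e-05) is therefore of uncertain size. *Hba-a3* (NM_001013853), an alpha globin gene, had values of −3.24, −3.07 and −2.85 in the SHR pools and 0.86, −0.40 and 1.82 in the WKY pools. The probe was not well above background on any of the 5 SHR arrays, while the WKY pools spread from −0.40 to 1.82 (log2 change −3.80, limma adjusted p = 0.000436). No fold is given, because the bound from the test channel exceeded the change of the ratio. The 12 probes of 8 other red cell genes, among them alpha and beta globins, had log2 changes of −0.52 to 0.19, none was called, and none had pools apart. The fall was thus seen with the *Hba-a3* probe and not with the other probes of red cell genes. Alpha globin genes are close copies of each other, which leaves the RNA bound by the probe uncertain.

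*Reep1* (NM_001108633), which shapes the tubular endoplasmic reticulum, had log2 ratios of −0.67, −0.98 and −0.60 in the SHR pools and 0.86, 0.41 and 0.32 in the WKY pools. It was 2.44-fold lower in SHR (log2 change −1.29, SE 0.17, limma adjusted p = 0.00299), and a second probe was lower without being called (−0.60). *Mtus2* (NM_001100989), a microtubule-associated protein, was 2.4-fold lower, with values of −0.60, −1.16 and −0.77 in the SHR pools and 0.69, 0.18 and 0.31 in the WKY pools. *Mrpl4* (NM_001108754), a protein of the mitochondrial ribosome, was 1.96-fold lower, with values of −0.67, −0.87 and −0.75 in the SHR pools and 0.32, 0.16 and 0.12 in the WKY pools. For both genes no SHR pool reached the lowest WKY pool. The unnamed probe A_64_P021924 had values of −1.85, −1.88 and −1.62 in the SHR pools and 1.06, 0.85 and 0.55 in the WKY pools and was well above background on 2 of 5 SHR arrays, so that its log2 change of −2.60 is of uncertain size. The largest rise of all also had no gene name, with values of 0.82, 0.85 and −0.23 in the SHR pools and −2.54, −2.33 and −2.85 in the WKY pools for A_64_P024665 (NM_001101017) and an 8.09-fold difference (log2 change 3.02, SE 0.49, limma adjusted p = 0.0124). Its call was lost without SHR/NHsd (adjusted p = 0.105), WKY/NTac or WKY/NCrL, and with arrays of a pool averaged (0.11). A_64_P105540 was 3.02-fold lower, and the 20 other called probes with no name in the RefSeq table had log2 changes of −1.32 to 1.30.

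Among secreted proteins and proteins of the matrix, *Thbs4* (NM_017133), a thrombospondin of the pericellular matrix, showed the largest rise of a named gene measured on all arrays with no discordant probe. Its log2 ratios were 0.89, 1.21 and −0.53 in the SHR pools and −1.57, −1.34 and −1.83 in the WKY pools. The SHR/SP pool lay −0.53 relative to the reference, well under the other SHR pools and still above all WKY pools. *Thbs4* was 4.19-fold higher in SHR (log2 change 2.07, SE 0.33, limma adjusted p = 0.0124). The call was lost without SHR/NHsd (adjusted p = 0.0725), WKY/NTac (0.0571) or WKY/NCrL (0.0502), with log2 changes of 1.65 to 2.65 over the 6 fits that each left out 1 pool. It was also lost with arrays of a pool averaged (limma adjusted p = 0.079). Of the list of 17 thrombospondins and matricellular genes *Thbs4* was the only one called (1 higher, 0 lower, list median 0.13). *Postn* (periostin, a matricellular protein of fibroblasts) had a log2 change of 1.42 and was not called (adjusted p = 0.321).

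*Wfdc21* (NM_001003706), a small secreted protein with a four-disulfide core domain, had log2 ratios of 0.28, 1.03 and 0.82 in the SHR pools and −0.59, −0.65 and −1.06 in the WKY pools. It was well above background on 1 of 3 WKY arrays, so the size of its log2 change of 1.52 (limma adjusted p = 0.00849) is uncertain. *Ecrg4* (NM_001271051), the precursor of a secreted peptide, was 2.45-fold higher in SHR, with values of 0.48, 0.76 and 0.25 in the SHR pools and −1.31, −0.65 and −0.43 in the WKY pools. These calls rested in part on single pools, since both were lost without SHR/NHsd (adjusted p = 0.0841 and 0.058) and *Wfdc21* also without SHR/SP (0.0697). *Hpse*, the heparanase that cleaves heparan sulfate of the matrix, rose 1.64-fold with 1 probe (limma adjusted p = 0.0308) and had a log2 change of 0.52 with a second, brighter one (adjusted p = 0.157). None of the 27 genes of arterial matrix and crosslinking was called (list median 0.21, 23 higher). The largest log2 changes among them were those of *Nid2*, a nidogen of the basement membrane (1.08, adjusted p = 0.342), and *Vcan*, the proteoglycan versican (0.90, adjusted p = 0.251). Without WKY/NCrL, *Vcan* passed the threshold (log2 change 1.32, limma adjusted p = 0.01).

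Receptors, channels and signalling proteins of the membrane formed the next group of called genes. *Aqp1* (NM_012778), the water channel of endothelium and other cells, had log2 ratios of 0.60, 1.09 and 0.60 in the SHR pools and −0.36, −1.11 and −0.90 in the WKY pools and was 2.96-fold higher in SHR (limma adjusted p = 0.011). *Tlr3* (NM_198791), the endosomal receptor for double-stranded RNA, rose with both of its probes. The brighter probe had values of 0.39, 0.80 and 0.58 in the SHR pools and −1.27, −0.71 and −0.48 in the WKY pools and was 2.7-fold higher (log2 change 1.43, SE 0.21, limma adjusted p = 0.00651). The other one had values of 0.44, 0.79 and 0.45 in the SHR pools and −1.27, −0.57 and −0.26 in the WKY pools and was 2.41-fold higher (limma adjusted p = 0.0196). *Tlr3* was the only called gene with every one of its several probes called. The call of the brighter probe was lost without SHR/SP (adjusted p = 0.0538) or SHR/NHsd (0.0678), that of the other one also without WKY/NCrL (0.0701 to 0.145), and both with arrays of a pool averaged (0.0798 and 0.155). Among the 27 matched genes of interferon and nucleic acid sensing it was also the only one called (list median 0.10), and *Irf1*, a transcription factor induced by interferon, had a log2 change of −0.55 (adjusted p = 0.107).

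*Bmpr1b* (NM_001024259), a type I receptor for bone morphogenetic proteins, had values of 1.22, 0.07 and 1.14 in the SHR pools and −0.79, −0.67 and −0.42 in the WKY pools. The SHR/NHsd pool was the lowest of SHR, and the probe was well above background on 2 of 3 WKY arrays (log2 change 1.40, limma adjusted p = 0.0279). *Gja1*, connexin 43 of gap junctions, had values of 0.35, 0.63 and 0.93 in the SHR pools and −0.57, 0.04 and −0.62 in the WKY pools and was 2.07-fold higher in SHR (limma adjusted p = 0.0151). *Ptgs1*, cyclooxygenase 1, which starts the synthesis of prostanoids, was 2.29-fold higher with a log2 change of 1.20 (limma adjusted p = 0.00708), whereas a dim second probe showed 0.10. *Vipr1*, a receptor for vasoactive intestinal peptide, was 1.76-fold lower (limma adjusted p = 0.0151). Of these, *Ptgs1* lost its call only without SHR/NHsd (adjusted p = 0.0725), *Aqp1* without SHR/NHsd, SHR/SP or WKY/NHsd (0.0543 to 0.0998), and *Gja1*, *Vipr1* and *Bmpr1b* without 4 of the 6 pools each.

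For genes of arterial tone the differences were few. Of 36 matched receptors and signalling genes of vascular tone, 1 was called, beside 0.369% of all genes with 1 probe per gene. This was *Rgs2*, which switches off G proteins of the vasoconstrictor receptors, with values of 0.47, 0.77 and 0.63 in the SHR pools and −0.06, 0.12 and −0.20 in the WKY pools and a 1.61-fold higher level in SHR (log2 change 0.69, SE 0.13, limma adjusted p = 0.0293). The call was lost without SHR/NHsd, SHR/SP, WKY/NTac or WKY/NCrL (adjusted p of 0.093 to 0.191). *Npy1r*, a receptor for neuropeptide Y (0.60, adjusted p = 0.323), *Ednra*, the endothelin receptor of muscle (−0.52, adjusted p = 0.161), and *Rgs4* (−0.51, adjusted p = 0.267) had log2 changes that were not called. The list median was −0.03.

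None of the 33 ion channels and pumps of arterial muscle was called (list median −0.12). *Ano1*, the calcium-activated chloride channel, had values of 0.42, 0.14 and 0.51 in the SHR pools and −1.30, −0.90 and −1.22 in the WKY pools, so that the pools lay apart, with a log2 change of 1.49 (SE 0.32, limma adjusted p = 0.0723). *Ano1* passed the threshold with only the 6-week groups in the fit (limma adjusted p = 0.00277), with median centring (0.0477) and with the replicate number as a block (0.0471). The paper lists *Ano1* among the genes that differed between the strains at both ages. *Trpc6*, a cation channel activated by diacylglycerol, had values of 0.51, 0.60 and 0.86 in the SHR pools and −0.10, 0.05 and −0.28 in the WKY pools (log2 change 0.78, limma adjusted p = 0.0589). *Kcnq1* and *Cacna1h*, a potassium and a T-type calcium channel, had log2 changes of −0.67 (adjusted p = 0.109) and −0.80 (adjusted p = 0.299). Of the 20 genes of contractile smooth muscle none was called and 15 were lower in SHR (median −0.18), with *Des*, the intermediate filament desmin, at −0.71 (adjusted p = 0.107) and pools apart.

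*Ctnna2* (NM_001106598), the alpha catenin of neurons that ties cadherins to actin, had log2 ratios of 0.78, 0.77 and 0.92 in the SHR pools and −0.70, −0.52 and −1.36 in the WKY pools and was 3.21-fold higher in SHR (log2 change 1.68, SE 0.17, limma adjusted p = 0.000311). *Tnnt2* (NM_012676), troponin T of heart muscle, had values of 0.64, 0.62 and 0.04 in the SHR pools and −1.32, −1.16 and −0.71 in the WKY pools and was 2.79-fold higher (limma adjusted p = 0.00504), with SHR/SP the lowest of SHR. *Ttc9* (NM_001134731), a tetratricopeptide repeat protein, had values of 0.53, 0.86 and −0.01 in the SHR pools and −0.79, −0.56 and −0.94 in the WKY pools and was 2.32-fold higher (limma adjusted p = 0.0394). The call of *Ctnna2* was kept in all 6 fits without 1 pool, that of *Tnnt2* was lost without SHR/NHsd (adjusted p = 0.053), and that of *Ttc9* was kept only without SHR/SP.

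*Fkbp5* (NM_001012174), a cochaperone of the glucocorticoid receptor that glucocorticoids induce, had values of −0.52, 0.92 and 0.56 in the SHR pools and −0.99, −1.78 and −1.32 in the WKY pools. The strain difference was 3.4-fold (log2 change 1.77, SE 0.31, limma adjusted p = 0.0231), but it was 0.63 on the slide with SHR/NCrL and 2.52 on the other. Between the NCrL sublines of both strains the log2 ratio differed by 0.46, and between the NHsd sublines by 2.70. The call was lost without SHR/SP, SHR/NHsd, WKY/NHsd or WKY/NTac (adjusted p of 0.0642 to 0.187). Of 18 matched genes known to respond to glucocorticoids, *Fkbp5* and *Rgs2* were called, against 0.369% of all genes, 13 were higher and the median log2 change was 0.44, beside −0.000122 over all genes. Mean log2 ratios of the list were 0.26 in SHR/NHsd, 0.13 in SHR/SP and −0.20 in SHR/NCrL, and −0.32 to −0.29 in the WKY pools, so SHR/NCrL lay close to WKY.

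The genes of antigen presentation, the list with the most matched genes, held the largest group of called genes of any list. Of 49 matched genes, 4 were called higher with their brightest probe (*RT1-CE10*, *RT1-CE3*, *RT1-CE15* and *RT1-A1*), where 0.207% of all genes were. None was called lower, where 0.162% of all genes were. In SHR 40 were higher (50% of all genes), and the median log2 change was 0.25. Pools lay apart upward in 19 of the 49, where 6.62% of all genes did so, and downward in 2, where 6.73% did. Counting any probe, 7 genes of the list were called. These were called in different directions, with 5 probes higher and 2 lower of the 47 that the RefSeq table names as RT1. One more fall lay outside these counts, because the table holds no entry for the accession of its probe, A_64_P105540 (NM_001008858), which the study's own annotation names *RT1-T24-1*, a class I gene. Its log2 ratios were −0.81, −0.75 and −1.59 in the SHR pools and −0.01, 0.70 and 0.87 in the WKY pools (log2 change −1.59, SE 0.24, limma adjusted p = 0.00714), and the call was lost without SHR/SP (adjusted p = 0.0559) and with arrays of a pool averaged. Genes of the RT1 class I cluster are close copies that also vary between strains, and a probe can bind several of them. Sequences of the probes were not used here, so that a change in RNA level and a change in the match of RNA to probe cannot be told apart.

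The promoters of 3 neighbouring class I genes are shown so that their own similarity can be seen. They come from the reference build and were not read from these SHR or WKY rats. They do not show what a probe binds. The probes of *RT1-CE10* and *RT1-CE3* were higher in SHR, while those of *RT1-CE5* had opposite signs. In the RefSeq gene order *RT1-CE10*, *RT1-CE5* and *RT1-CE3* lie within 4 protein-coding genes of chromosome 20, and *RT1-CE15* lies 4 genes before *RT1-CE10*. Each sequence holds 250 bases before and 50 bases after the start of the gene, from RefSeq on build GRCr8 and on the minus strand, at chr20:3384930-3385229 for *RT1-CE10*, chr20:3525109-3525408 for *RT1-CE3* and chr20:3484041-3484340 for *RT1-CE5*. Capitals mark the letters CCAAT on either strand (a CCAAT box) and the palindrome of enhancer A, a known control element of class I genes, which is the longer capital run of *RT1-CE10*. No match of one overlapped a match of the other.
RT1-CE10: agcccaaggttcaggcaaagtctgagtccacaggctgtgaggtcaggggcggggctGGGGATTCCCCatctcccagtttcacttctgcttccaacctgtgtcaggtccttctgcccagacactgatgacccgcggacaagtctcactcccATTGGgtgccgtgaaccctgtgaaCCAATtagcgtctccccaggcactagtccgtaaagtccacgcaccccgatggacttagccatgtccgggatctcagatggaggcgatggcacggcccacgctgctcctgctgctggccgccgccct
RT1-CE3: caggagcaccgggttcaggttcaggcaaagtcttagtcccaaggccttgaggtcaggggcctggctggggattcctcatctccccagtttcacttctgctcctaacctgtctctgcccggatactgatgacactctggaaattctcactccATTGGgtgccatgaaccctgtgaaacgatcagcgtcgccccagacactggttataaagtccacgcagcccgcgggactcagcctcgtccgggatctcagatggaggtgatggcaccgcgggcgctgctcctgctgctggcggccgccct
RT1-CE5: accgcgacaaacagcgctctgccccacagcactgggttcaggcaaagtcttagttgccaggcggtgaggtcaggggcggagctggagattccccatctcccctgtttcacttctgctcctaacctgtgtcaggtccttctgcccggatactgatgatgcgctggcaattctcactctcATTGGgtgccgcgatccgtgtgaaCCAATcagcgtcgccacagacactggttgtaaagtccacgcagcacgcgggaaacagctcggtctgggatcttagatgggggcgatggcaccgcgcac

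Aligned over their length, the promoters of *RT1-CE10* and *RT1-CE3* shared 247 of 311 positions (79.4%), those of *RT1-CE10* and *RT1-CE5* 229 of 328 (69.8%), and those of *RT1-CE3* and *RT1-CE5* 228 of 327 (69.7%). The enhancer A palindrome was found in 17 of 27457 promoters of the table (0.0619%), among them *RT1-CE10* and *RT1-A1*. Of the 62 called genes 51 had a promoter in the table, and CCAAT was present in 41.2% of these and in 37.7% of all promoters. The core of interferon-stimulated response elements was present in 3.77% of all promoters and in 1 called gene (*RT1-S2*), and the palindrome of glucocorticoid response elements in 0.422% and in 1 called gene (*Acp5*). The endoplasmic reticulum stress element was found in 0.0765% of all promoters and in 0 of the 51. These matches describe letters in a window and draw nothing about binding.

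*RT1-CE10* (NM_001008833) had log2 ratios of 1.11, 0.98 and 1.10 in the SHR pools and −1.69, −1.20 and −1.38 in the WKY pools, and each strain's pools lay within 0.5 log2 unit of each other. It was well above background on 2 of 3 WKY arrays, so the size of its log2 change of 2.49 (SE 0.15, limma adjusted p = 8.34e-07) is uncertain. *RT1-CE3* (NM_001008841) had values of 0.70, 0.72 and 0.53 in the SHR pools and −1.46, −0.98 and −0.38 in the WKY pools and was 3.01-fold higher (limma adjusted p = 0.00184). The WKY pools of *RT1-CE3* differed by more than 1 log2 unit among themselves, while those of SHR lay close together. *RT1-CE15* was 2.31-fold, *RT1-S2* 2.04-fold and *RT1-A1* 1.83-fold higher, and *RT1-A1* and *RT1-S2* each had a second probe with a log2 change of 0.85 and 0.87 that was not called. The call of *RT1-CE15* was kept in 5 of the 6 fits without 1 pool, that of *RT1-A1* in 3 and that of *RT1-S2* in 1. Each of these calls was lost with arrays of a pool averaged.

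*RT1-CE5* (NM_001008843) gave opposite signs with its 2 probes. The dim probe, which was not well above background on any SHR array, had values of −1.34, −1.10 and −1.08 in the SHR pools and −0.51, 0.73 and 0.22 in the WKY pools and was called (log2 change −1.30, limma adjusted p = 0.0332). The brighter probe had values of 0.36, 0.73 and 0.34 in the SHR pools and −1.03, −0.09 and −0.12 in the WKY pools and a log2 change of 0.90 that was not called (adjusted p = 0.131). The same held for *RT1-Bb*, the beta chain of a class II molecule. Its dim probe had values of −2.50, −2.63 and −2.29 in the SHR pools and −0.38, −0.16 and −0.64 in the WKY pools (log2 change −2.08, limma adjusted p = 0.0196, 4 of 5 SHR arrays well above background) and its brighter probe 0.60, 0.55 and −0.67 in the SHR pools and −1.75, −1.87 and −1.95 in the WKY pools (log2 change 1.97, adjusted p = 0.149). The calls of *RT1-CE5* and *RT1-Bb* were each kept in only 1 of the 6 fits without 1 pool and lost with arrays of a pool averaged. No direction is given for these genes.

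No other class II gene was called. Log2 changes of *RT1-Ba*, *RT1-DMa*, *RT1-DMb*, *RT1-DOa*, *RT1-DOb* and *RT1-Ha*, named after their values were seen, were between −0.37 and 0.22, and 3 of these genes were not well above background on any 6-week array. *RT1-Db1* had larger log2 changes. Its brighter probe was at 0.88 with pools apart (limma adjusted p = 0.703) and its other probe at 0.39 with pools overlapping (0.934). *Cd74*, the invariant chain that accompanies class II molecules, had values of 0.32, 0.24 and −0.59 in the SHR pools and −1.49, −1.20 and −1.90 in the WKY pools (log2 change 1.48, adjusted p = 0.244) and *RT1-Da* 0.42, 0.19 and −0.70 in the SHR pools and −1.35, −1.48 and −1.77 in the WKY pools (log2 change 1.46, adjusted p = 0.293). In both, SHR/SP was the lowest SHR pool and lay above all WKY pools. Of the markers of macrophages, which carry class II molecules, 11 of 11 matched genes were higher in SHR (50% of all genes), 4 with pools apart upward (6.62% of all genes) and 0 called, with a median log2 change of 0.82. Their mean log2 ratio was 0.71 in SHR/NHsd, 0.01 in SHR/NCrL and −0.09 in SHR/SP, against −0.60 to −0.07 in the WKY pools, so SHR/SP lay under the highest WKY pool. The part of these cells in the class II values was not tested.

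**Figure D2:**
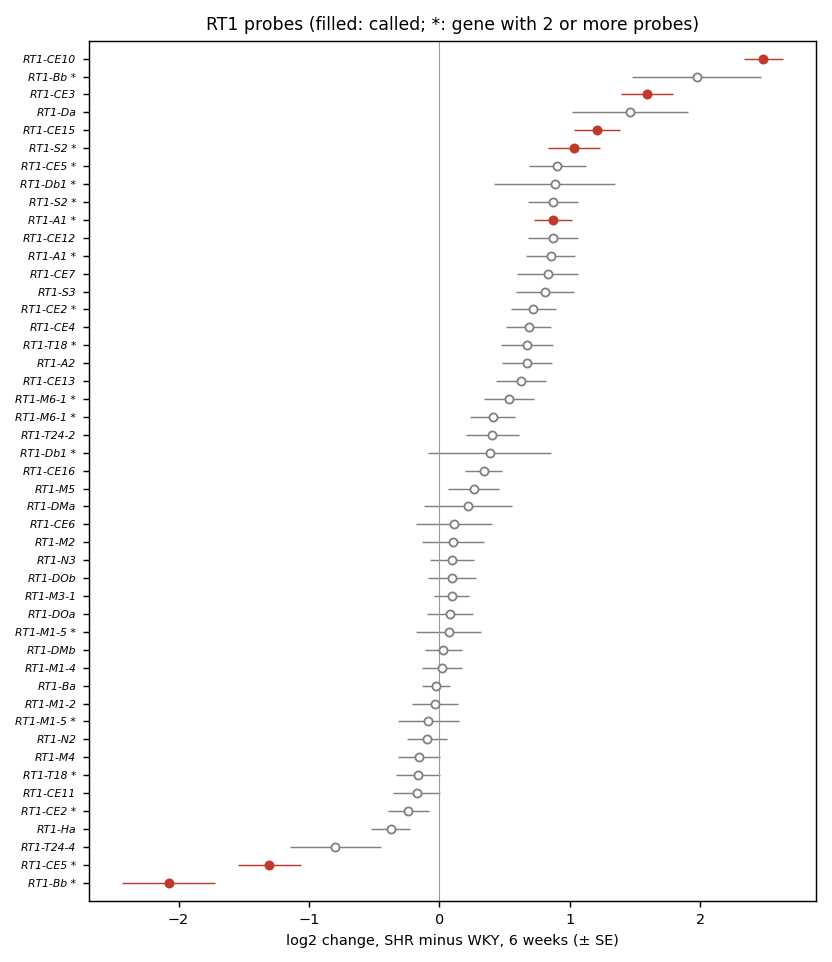
Log2 change of SHR minus WKY at 6 weeks (x axis, bars ± SE) for the 47 probes named as RT1 in the RefSeq table, ordered by size. Filled red points are called and asterisks mark genes with 2 or more probes. The 2 called falls among them belong to *RT1-Bb* and *RT1-CE5*, whose other probes lie on the opposite side at 1.97 and 0.90.

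Genes of the endoplasmic reticulum were compared because the study tested targets of ATF6, a transcription factor of its stress response. The paper reported a significant difference of its target set between the strains at both ages. In western blots of aorta it also found more THBS4, cleaved ATF6 and MANF protein in SHR, while the rise of PDI was not significant. The list of the ATF6 branch used here was drawn up separately and is not that target set. Of 21 matched genes of that branch all were higher in SHR (50% of all genes), 9 had pools apart upward (6.62% of all genes) and 1 was called (0.369% of all genes), with a median log2 change of 0.25. The mean log2 ratio of the list was 0.21 to 0.31 in the SHR pools and −0.03 to −0.01 in the WKY pools. The called gene was *Tor1b*, a torsin ATPase of the endoplasmic reticulum lumen, with values of 0.94, 0.02 and 0.82 in the SHR pools and −0.49, −0.59 and −0.27 in the WKY pools and a 2.01-fold higher level (limma adjusted p = 0.044). The call was kept only without SHR/NHsd, the lowest SHR pool. The paper names *Tor1b* among its top rises in these same arrays, and the lists were chosen with earlier results known. This call is therefore not independent of the list. *Herpud1*, of protein degradation at the reticulum, had a log2 change of 0.52 (adjusted p = 0.305) and *Hspa5*, its main chaperone, of 0.50 (adjusted p = 0.328). *Atf6* itself was not called (log2 change −0.75, adjusted p = 0.312), and passed the threshold only with supplier as a block (−1.07, limma adjusted p = 0.00195). *Fkbp7*, a prolyl isomerase of the same compartment outside the list, was 1.57-fold higher (limma adjusted p = 0.0415). No gene of the PERK list (17 matched) or the IRE1 list (9 matched) was called, with medians of 0.14 and 0.15. Among 12 heat shock genes none was called, and *Dnaja1*, a cochaperone of HSP70, had a log2 change of 0.99 (adjusted p = 0.0637) with pools apart.

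Further rises concerned the growth and nucleotide lists. *Hes1*, a transcriptional repressor downstream of Notch, was the only called gene of 32 growth factors and signals of wall remodelling, with values of 0.46, 0.34 and 0.28 in the SHR pools and −0.39, −0.78 and −0.13 in the WKY pools (1.72-fold, limma adjusted p = 0.0319). It remained called only without WKY/NTac. *Enpp1* was the only called gene of 16 enzymes and receptors of extracellular nucleotides, and *P2ry6*, a receptor for UDP, had a log2 change of −0.79 (adjusted p = 0.155). Outside the lists, *Acp5*, the tartrate-resistant acid phosphatase of osteoclasts and macrophages, rose 2.18-fold, *Depp1*, a target of FoxO factors, 2.15-fold, *Abhd16a*, a lipase encoded beside the RT1 genes, 1.86-fold, and *Zfp597*, a zinc finger protein, had a log2 change of 1.15 with 2 of 3 WKY arrays well above background. *Cfap141* (1.86-fold), *Gask1b* (1.67-fold), *Eef2kmt* (1.85-fold), *Nmral1* (1.7-fold) and *Tmem14a* (2.01-fold) rose as well. The calls of *Abhd16a* and *Zfp597* were kept in all 6 fits without 1 pool. Those of *Tmem14a* were kept in 5, of *Cfap141* in 4, of *Acp5* and *Nmral1* in 2, and of *Depp1*, *Gask1b* and *Eef2kmt* in 1. The genes kept in fewer than 6 fits also lost their calls with arrays of a pool averaged.

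**Figure D3:**
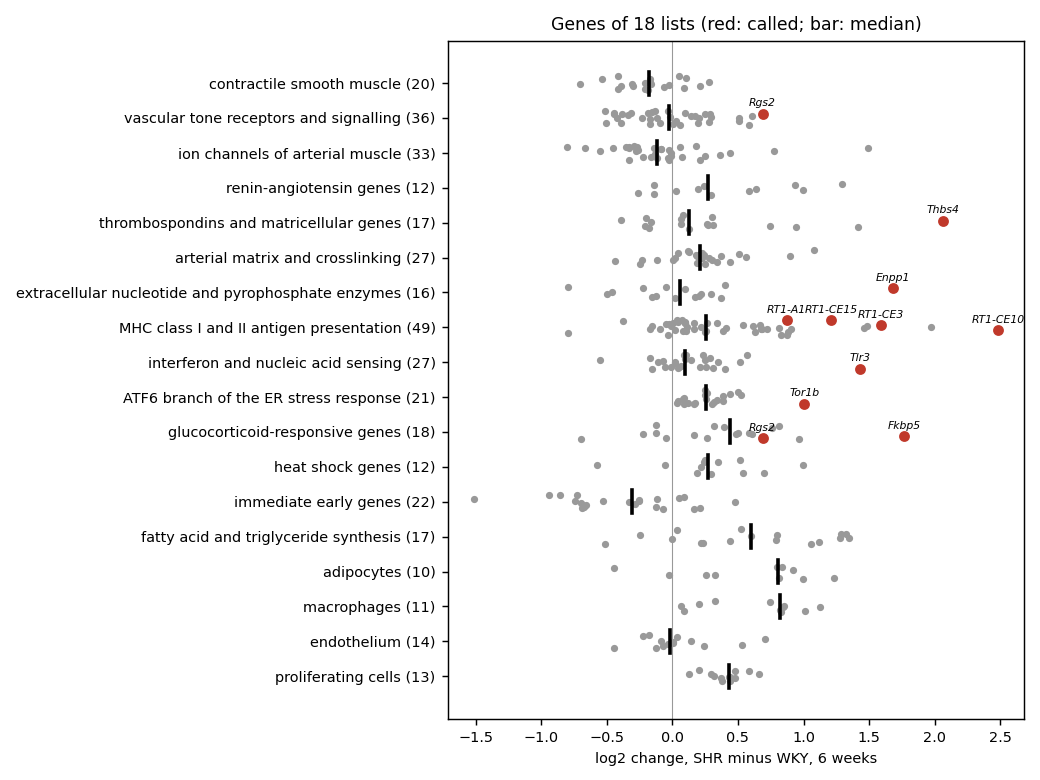
Log2 change of SHR minus WKY at 6 weeks (x axis) for the genes of 18 lists, with 1 probe per gene and the number of matched genes in brackets. Red points are called and grey points are not, black bars are medians, and vertical scatter within a row has no meaning. Called genes are few in each list, while medians of macrophages (0.82) and adipocytes (0.80) lie farthest from 0.

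Among the falls, *Trim55* (NM_001012218), a RING finger protein of striated muscle sarcomeres, had log2 ratios of −1.55, −1.61 and −1.63 in the SHR pools and −0.13, 0.47 and 0.48 in the WKY pools. It was 3.67-fold lower in SHR (log2 change −1.87, SE 0.17, limma adjusted p = 6.59e-05), with the SHR pools within 0.1 log2 unit of each other. *Mettl24* (NM_001025038), a methyltransferase-like protein, had values of −2.18, −0.67 and −1.76 in the SHR pools and 0.51, 0.15 and 0.73 in the WKY pools and was well above background on 2 of 5 SHR arrays (log2 change −1.93, limma adjusted p = 0.00911). *B3gat2* (NM_022609), a glucuronyltransferase of the HNK-1 carbohydrate, had values of −0.69, −0.88 and −0.57 in the SHR pools and 0.75, 0.05 and 0.50 in the WKY pools and was well above background on 1 of 5 SHR arrays (log2 change −1.15, limma adjusted p = 0.00557). Sizes are uncertain for both, and the call of *Mettl24* was lost without SHR/SP (adjusted p = 0.106).

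*Smim5*, a small membrane protein, was lower with 2 called probes, 2.12-fold and 1.65-fold, and with another, uncalled one (log2 change −0.52). The brightest had values of −0.67, −0.93 and −1.06 in the SHR pools and −0.07, 0.19 and 0.40 in the WKY pools. Its call was kept in 3 of the 6 fits without 1 pool and that of the other called probe in 0. Both calls were lost with arrays of a pool averaged. *Accs* (NM_001267534), a homologue of a plant enzyme of ethylene synthesis, had values of −0.64, −0.53 and −0.57 in the SHR pools and 0.21, 0.32 and 0.47 in the WKY pools and was 1.87-fold lower (limma adjusted p = 0.00436). *C3h11orf96* (NM_001110055), a gene of unassigned function that lies 2 protein-coding genes from *Accs*, had values of −0.61, −1.10 and −0.50 in the SHR pools and 0.10, 0.07 and 0.09 in the WKY pools and was 1.78-fold lower (limma adjusted p = 0.0202). *Chmp1b* (NM_001109533), a subunit of the ESCRT-III complex of membrane scission, had values of −0.46, −0.63 and −0.45 in the SHR pools and 0.46, 0.33 and 0.32 in the WKY pools and was 1.85-fold lower (limma adjusted p = 0.0014). *Tars2* (NM_001014040), the threonyl-tRNA synthetase of mitochondria, had values of −0.38, −0.37 and −0.41 in the SHR pools and 0.61, 0.35 and 0.46 in the WKY pools and was 1.82-fold lower (limma adjusted p = 0.00313), but a second probe showed only −0.16. The calls of *Trim55*, *Accs*, *Chmp1b* and *Tars2* were kept in all 6 fits without 1 pool, while that of *C3h11orf96* was kept only without SHR/NCrL or SHR/SP.

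Other called falls were smaller. *Cyp26b1*, which degrades retinoic acid, was 1.75-fold lower, *Ndufs7*, a subunit of respiratory complex I, 1.51-fold, *Snrnp35*, of the minor spliceosome, 1.69-fold, and *Med17*, of the Mediator complex, 1.52-fold. *Gprc5c*, an orphan receptor, was 1.66-fold lower and *Rgs7bp*, an anchor of R7 regulators of G protein signalling, 1.63-fold. *Bdh1*, a mitochondrial enzyme of ketone bodies, had a log2 change of −0.79 with 2 of 5 SHR arrays well above background. *Unc119*, a carrier of myristoylated proteins, was 1.74-fold and *Ajuba*, a LIM protein of cell contacts, 1.66-fold lower. All pools of SHR lay under all pools of WKY for each of these 9 genes. Their adjusted p-values (limma) were between 0.00675 and 0.0452. The calls of *Cyp26b1*, *Ndufs7*, *Med17*, *Rgs7bp* and *Bdh1* were kept in 1 of the 6 fits without 1 pool and that of *Gprc5c* in 0. The call of *Ajuba* was kept in 2, that of *Unc119* in 4 and that of *Snrnp35* in 5. Of these 9 genes, only *Snrnp35* remained called with arrays of a pool averaged.

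Of the 62 called genes, 16 had 2 or more probes. All probes were called for 1 gene (*Tlr3*), the other probe had the opposite sign for 4 (*Pcmtd1*, *RT1-Bb*, *RT1-CE5* and *Alkbh4*, the last at 0.01), it had the same sign at under 0.2 for 5 (*Otub2*, *Pnkd*, *Ptgs1*, *Tars2* and *Trim16*) and the same sign at a larger size for 6 (*Ctnna2*, *Hpse*, *RT1-A1*, *RT1-S2*, *Reep1* and *Smim5*). In the RefSeq gene order, 12 pairs of called genes that follow each other lay within 40 protein-coding genes. The RT1 region accounted for 6 of them, and *Eef2kmt*, *Nmral1* and *Zfp597*, which were all higher, lay 19 and 17 genes apart. *Tmem14a* and *B3gat2*, 9 genes apart, moved in opposite directions (1.00 and −1.15).

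In several groups of genes single sublines stood apart from the others of their strain. *Cd36*, a fatty acid translocase known to be defective in some SHR colonies, had log2 ratios of −3.33, −2.04 and 1.12 in the SHR pools and 0.47, 1.14 and −1.24 in the WKY pools. SHR/NCrL and SHR/NHsd were low and SHR/SP lay between the highest WKY pools, so that the strains overlapped and *Cd36* was not called (log2 change −1.35, SE 0.97, limma adjusted p = 0.838). Of 15 candidate genes from SHR genetics none was called. *Endog*, a mitochondrial nuclease, had values of −0.57, −0.14 and −0.87 in the SHR pools and 0.21, 0.36 and 0.41 in the WKY pools (log2 change −0.84, adjusted p = 0.0841) and was called without SHR/NHsd (−1.07, limma adjusted p = 0.0299). *Fabp3*, a fatty acid binding protein of muscle, had a log2 change of −0.86 (adjusted p = 0.0806) with pools apart.

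The 17 genes of fatty acid and triglyceride synthesis had a median log2 change of 0.60, with 14 higher and 0 called. Their mean log2 ratios were −0.20, 0.62 and 0.81 in the SHR pools and 0.34, 0.04 and −0.77 in the WKY pools. The pools overlapped, with WKY/NTac lowest. Of the markers of adipocytes, 8 of 10 were higher and 0 called, at mean log2 ratios of −0.37, 0.78 and 0.59 in SHR and 0.12, 0.40 and −1.01 in WKY. *Adipoq* (adiponectin) was at −1.88 in WKY/NTac and at −0.39 to 1.06 elsewhere. *Fasn*, the fatty acid synthase, was at −2.11 in WKY/NTac, and its log2 change of 1.27 was 0.54 without that pool. The part of adipocytes in these values was not tested.

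Immediate early genes were highest in the WKY/NHsd pool. The mean log2 ratio of 22 matched genes was 0.89 there and −0.59 to −0.06 in the other 5 pools, and none was called (median −0.31). *Fos* had values of −2.44, −1.45 and −0.22 in the SHR pools and −1.16, 2.13 and −0.21 in the WKY pools, and without WKY/NHsd its log2 change went from −1.51 to −0.57. Endothelial markers (14 genes, median −0.02), fibroblasts (10, 0.30), mast cells (8, 0.45), Schwann cells and nerve (13, 0.28) and proliferating cells (13, 0.43) had no called gene. Of the 12 matched renin-angiotensin genes none was called, with *Enpep*, an aminopeptidase of angiotensin, at 1.00 (adjusted p = 0.144).

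**Figure D4:**
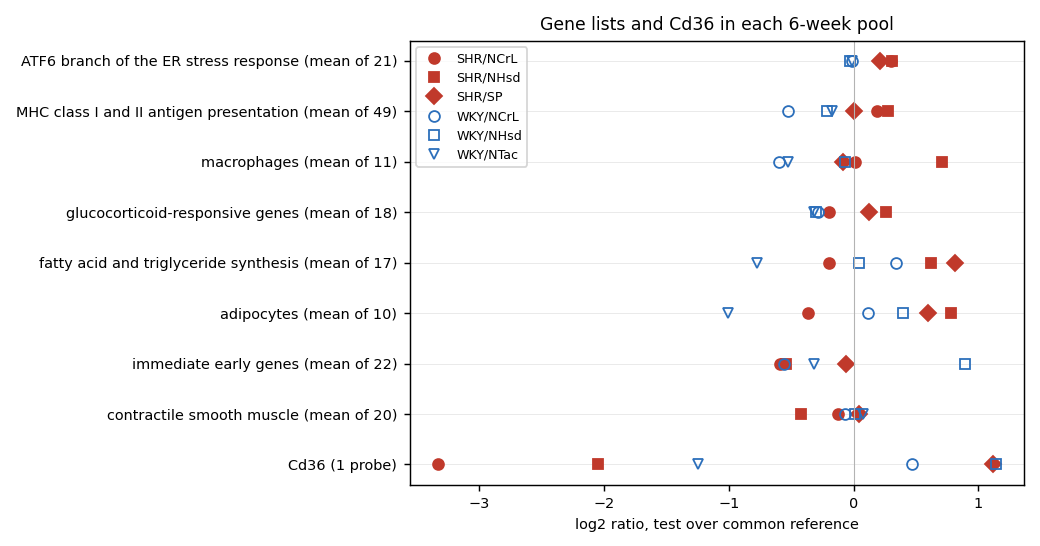
Mean log2 ratio of test over common reference RNA (x axis) of 8 gene lists, and the log2 ratio of *Cd36*, in each 6-week pool. Filled red symbols are SHR pools and open blue symbols WKY pools. Strains lie apart for the ATF6 branch, antigen presentation and the glucocorticoid list, where SHR/NCrL lies next to WKY, and overlap elsewhere, while single pools stand out for immediate early genes (WKY/NHsd at 0.89) and adipocytes (WKY/NTac at −1.01).

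Whether a strain difference of 6 weeks differs at 5 months, when SHR are hypertensive, was tested with the interaction of strain and age. At 5 months the same fit had 2 pools of SHR (SHR/NCrL and SHR/SP, 4 arrays) and 2 pools of WKY (WKY/NCrL and WKY/NTac), and called 115 probes (0.379%). The NHsd pools of both strains were absent at that age, so age and subline make-up cannot be told apart. The interaction called 0 of 30367 probes (limma, smallest adjusted p = 0.9998), with 1253 probes (4.13%) at an unadjusted p under 0.05. Of the 87 probes called at 6 weeks 48 were not called at 5 months, and 43 of these had the same sign at both ages. Those with the opposite sign were *Wfdc21*, *Ttc9*, *Depp1*, *Gja1* and *Hpse*.

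For *Gja1* the log2 change was 1.05 at 6 weeks and −0.02 at 5 months, and for *Rgs2* it was 0.69 and 0.01. The differences between ages (1.07, SE 0.27, and 0.68, SE 0.20) did not pass the adjustment over all probes (limma adjusted p = 0.9998 for both, unadjusted p = 0.00131 and 0.00351). Likewise *Wfdc21* went from 1.52 to −0.09 and *Ttc9* from 1.22 to −0.03. Some other called genes were of similar or larger size later, such as *Thbs4* (2.07 and 3.20), *Tor1b* (1.01 and 1.58) and *Hes1* (0.78 and 1.21). Without SHR/NHsd, a subline absent at 5 months, the log2 change of *Tor1b* at 6 weeks was 1.32. *Aqp1* (1.57 and 1.09) and *Ctnna2* (1.68 and 0.67) were smaller later and not called there. None of these differences between ages passed the adjusted threshold.

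**Figure D5:**
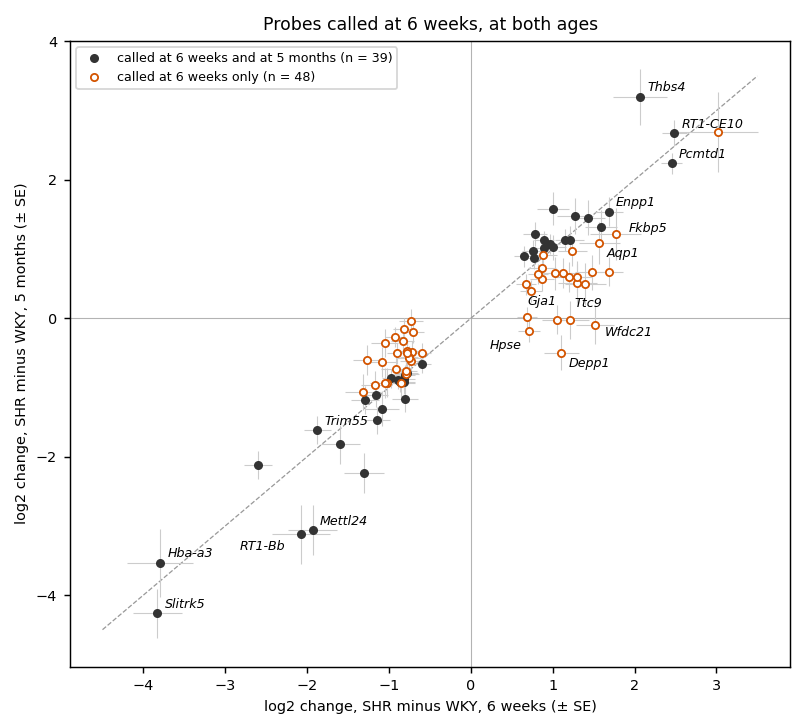
Log2 change of SHR minus WKY at 6 weeks (x axis) against that at 5 months (y axis) for the 87 probes called at 6 weeks, with bars of ± SE. Black points (39) are called at both ages and open orange points (48) at 6 weeks only, and the dashed line marks equal change. Most points lie near the line, while *Wfdc21*, *Depp1*, *Gja1*, *Ttc9* and *Hpse* lie below 0 on the y axis.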

How the data were processed

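The authors hybridised test RNA (Cy3) against a pool of all test samples (Cy5) on Agilent rat arrays with no dye swap, and deposited scanner intensities from Feature Extraction together with log2 ratios of test over reference. These deposited log2 ratios were made by the authors with limma (R 3.0.0 in the submitters' processing notes) by normexp background correction (offset 15), loess within each array and averaging of repeated probes. Ratios rebuilt from the scanner intensities fixed their scale and direction. Probes (30367) were named through the RefSeq table of GRCr8, which gave a gene name for 60.4%, and gene lists used the brightest probe of each gene. With limma 3.58.1 (R 4.3.3), a model was fitted to the deposited ratios of 14 arrays of 10 pools in 4 groups of strain and age, with the pool as a random block (correlation 0.444), and p-values were adjusted by Benjamini-Hochberg. Pools were the samples, and their number limits the precision. The 2 arrays that had failed quality control, both outside the 6-week groups, entered only as an alternative. In a test on simulated data for this comparison (3000 probes), 99% of changes of 1.5 and 77% of 0.75 log2 units were recovered, and 2.76% of calls were false. The simulation changed 100 probes of each size and drew noise independently for each probe. That is a larger share than the 0.286% of probes called in the data, so these rates cannot be carried over to the data. The members and gene lists were chosen with earlier results of these data known. Named were the called probes with a gene name, with all pools given for the 15 largest rises and falls, up to 4 further genes of each list with the largest changes, *Thbs4* and *Atf6*, genes with discordant probes and the 3 unnamed probes with the largest change. Of the lists not described elsewhere, genes of leukocyte adhesion, proteases, clock, fatty acid oxidation, cholesterol, oxidants, lymphatics, mesothelium and skeletal muscle held no called gene.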

Additional observations from a re-analysis of the deposited data

Results flagged for a closer look

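The strain differences of *Hpse* and *Depp1* had opposite signs at 6 weeks and 5 months, with the pools of SHR and WKY apart at both ages in the probes called at 6 weeks. For that probe of *Hpse* the log2 change was 0.71 at 6 weeks and −0.18 at 5 months, a difference between ages of 0.894 (limma, unadjusted p = 0.000528, adjusted p = 0.9998). The brighter *Hpse* probe had log2 changes of 0.52 and −0.03, and its pools overlapped at 5 months. For *Depp1* the log2 change was 1.11 at 6 weeks and −0.50 at 5 months, a difference of 1.60 (limma, unadjusted p = 0.000227, adjusted p = 0.9998). Neither difference passed the adjusted threshold, neither gene was called at 5 months (limma adjusted p = 0.899 and 0.710), and each call at 6 weeks was kept in 1 of the 6 fits without 1 pool. The NHsd pools of both strains entered only at 6 weeks, so age and subline make-up cannot be told apart.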

How the results depend on the processing

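The count of 87 probes at 6 weeks stayed within 1.5 times (58 to 90) with ratios rebuilt from the scanner, median centring, bright probes only, slide as a block, or eBayes with trend and robust. It was 25 with arrays of a pool averaged, 21 with 1 array per pool, 49 with only the 6-week groups, 152 with normexp offset 50, 55 with Feature Extraction processed signals, 184 with the test channel alone, 18 with failed arrays included, and 193 with supplier as a block. The cause was not tested, except that averaging and 1 array per pool use fewer arrays. Without a single pool it was 37 to 91, with 37 without SHR/NHsd and 39 without SHR/SP. The 12 called genes of the lists became 4 with arrays averaged, 4 with 1 array per pool, 20 with offset 50, 21 with the test channel alone, 5 with failed arrays and 31 with supplier as a block, and 6 to 12 without a single pool. With the replicate number as a block 219 probes were called (131 higher, 88 lower), 37 list genes, and 36 probes for the difference between ages. These numbers were not taken as pairs, since the titles do not call them so and number 1 joins pools of different suppliers. Deviations of same-numbered pools correlated at 0.392, 0.0475 and 0.280, and those of other numbers at −0.360 to 0.103. WKY/NCrL correlated best with SHR/NHsd of another number (0.103). Whether same-numbered pools share a step of handling was not tested. The difference between ages called 0 probes under the other alternatives run, and 0 to 2 without a single pool (2 without WKY/NCrL), and was not run with only the 6-week groups. No direction reversed among the named genes under any alternative. Of 1340 values for called genes 427 no longer passed the threshold, and of 1260 for uncalled ones 44 passed it. Probes near background limit the sizes of the falls.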
